A study of Rattus norvegicus with 6 samples.

Results

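Serotonin is made from tryptophan by tryptophan hydroxylase, the rate-limiting enzyme, followed by aromatic amino acid decarboxylase, and is packed into granules by vesicular monoamine transporters. Beta cells of the pancreatic islet make and release it. In rodent pregnancy, lactogenic hormones acting through the prolactin receptor raise tryptophan hydroxylase in beta cells by way of JAK2 and STAT5, and serotonin then acts on receptors of the same cells. Around birth, growth hormone and its receptor have been assigned a similar role. The genes described here are those of serotonin synthesis (Tph1, Tph2, Ddc), vesicular storage (Slc18a1, Slc18a2), 2 serotonin receptors discussed for beta cells (Htr2b, Htr1d) and the lactogenic receptors (Prlr, Ghr). They were taken by symbol, and 8 of the 9 symbols had a row among the 18625 named genes of the deposited table. Prlr is not analysed here.

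RNA sequencing profiled islets freshly isolated from rats at embryonic day 19 (E19, 3 libraries) and after birth (3 libraries). The labels give no strain, genotype or treatment for either group. Titles of the later libraries all say 2 weeks, but their age labels say postnatal week 2, 3 and 4 for replicates 1, 2 and 3, so the group is called postnatal. The comparison asks how expression in the islet differs between late fetal and early postnatal life. Nothing states that replicates came from separate animals, and p-values therefore measure the spread between these libraries only, which may be technical. Levels are given as scaled CPM, which is CPM relative to a library size that the depositors had adjusted between libraries. Fold changes are log2 differences, postnatal minus E19, of scaled CPM + 1, which understate the change of low genes, and were tested with limma over 12926 genes that reached 1 scaled CPM in at least 3 libraries. A gene is called at a Benjamini-Hochberg adjusted p under 0.05.

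The libraries held 26.1 to 37.8 M reads at E19 and 28.2 to 29.5 M after birth, and 3 reads were worth 0.0726 to 0.152 scaled CPM depending on the library. Islet identity was present in both groups and unequal. The summed level of 8 beta cell markers ran from 1711 to 4402 scaled CPM at E19 and from 38558 to 66649 after birth, and that of 10 markers shared by islet endocrine cells from 620 to 916 and from 3215 to 5717. Digestive enzyme markers (14 acinar genes) summed to between 47605 and 73322 at E19 and between 182641 and 530638 after birth, with the top value in postnatal replicate 1. Liver markers (10 genes) summed to 7915 in fetal replicate 2 and to between 299 and 697 in the other 5 libraries. In such bulk samples, fewer cells of a type and less RNA per cell cannot be told apart.

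The 250 bases upstream of 4 gene starts are shown for description only, and no expression test below used them. They belong to Tph1 (enzyme), Slc18a2 (transporter), Ghr (receptor) and Cish, a feedback inhibitor that STAT5 is known to induce. The sequences are from RefSeq (GRCr8), 5′ to 3′ on the strand of the gene, and each stops at the base before the start. They lie at chr1:106314629-106314878 (minus strand) for Tph1, chr1:268399771-268400020 (plus strand) for Slc18a2, chr2:54432076-54432325 (minus strand) for Ghr, and chr8:116850719-116850968 (plus strand) for Cish. Capitals mark matches, on either strand, to the STAT5 element TTCNNNGAA or to the cyclic AMP response element TGACGTCA. Entries were found for 10 of 13 genes looked up, and none for Slc18a1, Socs2 and Tnfrsf11b.

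Tph1: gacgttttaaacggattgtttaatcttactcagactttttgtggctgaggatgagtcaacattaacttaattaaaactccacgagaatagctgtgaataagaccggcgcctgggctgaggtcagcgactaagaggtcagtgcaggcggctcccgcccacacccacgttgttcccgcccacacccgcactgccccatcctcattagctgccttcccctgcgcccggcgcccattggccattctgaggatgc
Slc18a2: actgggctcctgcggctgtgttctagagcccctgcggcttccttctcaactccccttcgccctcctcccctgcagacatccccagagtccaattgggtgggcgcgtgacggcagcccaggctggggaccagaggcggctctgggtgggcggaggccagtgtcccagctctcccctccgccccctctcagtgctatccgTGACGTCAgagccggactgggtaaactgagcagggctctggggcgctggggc
Ghr: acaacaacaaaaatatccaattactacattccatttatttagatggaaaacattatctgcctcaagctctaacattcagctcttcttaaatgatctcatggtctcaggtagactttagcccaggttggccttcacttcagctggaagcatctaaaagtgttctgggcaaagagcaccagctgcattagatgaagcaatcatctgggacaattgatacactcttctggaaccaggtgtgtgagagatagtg
Cish: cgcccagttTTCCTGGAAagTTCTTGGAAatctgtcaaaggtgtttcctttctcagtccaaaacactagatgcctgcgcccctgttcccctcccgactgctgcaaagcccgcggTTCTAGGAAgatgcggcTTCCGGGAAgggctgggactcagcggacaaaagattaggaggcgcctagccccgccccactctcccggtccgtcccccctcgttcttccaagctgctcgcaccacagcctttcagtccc

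The Cish window held 4 matches to the STAT5 element, the first starting 241 and the last 119 bases before the start. Of 33469 promoters of the same length, 7.67% held at least 1 match and 2 (0.00598%) held 4 or more. The windows of Tph1, Slc18a2 and Ghr held no match to the STAT5 element. Among windows not shown, a Ddc window held 1 match, starting 111 bases before the start, and the other Ddc windows held none. Those of Tph2, Htr2b, Htr1d, Stat5a and Stat5b, also not shown, held none either. The Slc18a2 window held 1 cyclic AMP response element, starting 52 bases before the start, and 1.59% of all windows held that element. A match describes letters in this window and was not tested as a binding site. The Ghr window belongs to 1 annotated start, and the files do not show which start was used.

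Of the 8 genes, 6 could be tested and 1 was called, Slc18a1, which was higher after birth. None was called lower by limma. None was lower at an unadjusted p under 0.05 either, nor by edgeR or DESeq2 on the recovered reads. In the same test 63.1% of all 12926 genes were called, 30.0% higher and 33.1% lower. The median log2 fold change of the 6 was 0.08, beside -0.03 for all genes tested. In 5 of the 6 the values of the groups overlapped, whereas 70.0% of all genes tested had groups without overlap. Slc18a1 entered the test only through its postnatal values, since all 3 fetal values were under 1, so its difference was partly built into the filter.

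**Figure D1:**
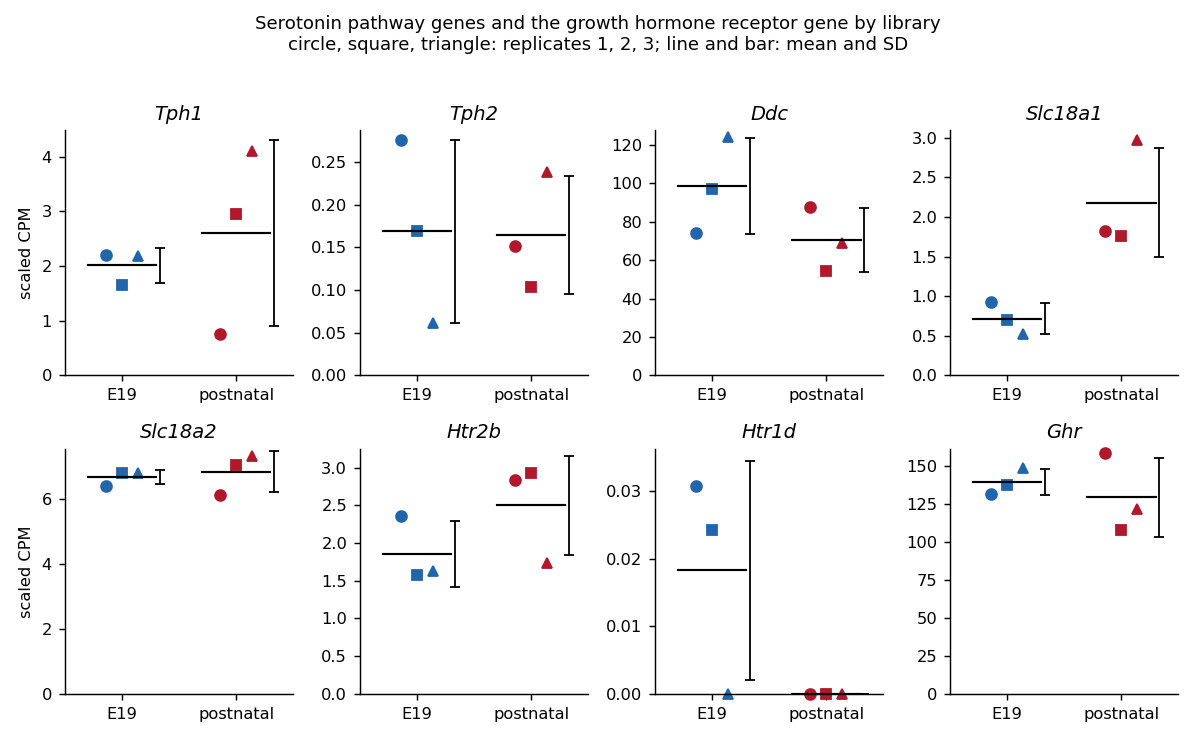
Scaled CPM of the 8 genes in each of the 6 libraries (vertical axes from 0, each with its own scale), E19 in blue and postnatal in red. Circle, square and triangle are replicates 1, 2 and 3, the horizontal line is the group mean and the bar its SD; only the Slc18a1 values separate by group among the 6 genes tested, with E19 at 0.524 to 0.921 and postnatal at 1.76 to 2.97.

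Tph1, the tryptophan hydroxylase of peripheral tissues, was low in both groups. It stood at 2.21, 1.65 and 2.19 scaled CPM in fetal replicates 1, 2 and 3, from 72, 68 and 71 reads. After birth it stood at 0.759, 2.96 and 4.10 in replicates 1, 2 and 3, from 15, 86 and 120 reads. The fetal libraries were close together, while postnatal replicate 1 was below and the other postnatal libraries above all of them. Exact Poisson 95% intervals, which cover counting error only, were 0.425 to 1.25 for postnatal replicate 1 and 3.40 to 4.90 for postnatal replicate 3. These intervals do not meet. The difference between the groups did not pass (log2 fold change 0.13 ± 0.37 SE, limma adjusted p = 0.772), and its 95% interval reached from 1.65-fold lower to 1.97-fold higher. Leaving out postnatal replicate 1 brought the log2 fold change to 0.58 with an adjusted p of 0.0313. With both that library and fetal replicate 2 left out it was 0.49 (adjusted p = 0.0895).

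Tph1 is also a gene of mast cells, which store serotonin in rodents, and mast cell genes differed between these libraries. Of 12 markers listed, 11 had a row and 10 were tested, 7 of them called higher and 3 lower, beside 30.0% and 33.1% of all genes tested. Of the 10, 2 passed the filter only through their postnatal values. Cpa3, the mast cell carboxypeptidase, stood at 4.82, 5.81 and 1.66 in the fetal and 12.8, 71.1 and 76.9 scaled CPM in the postnatal libraries. Postnatal replicate 1 was lowest of its group for Cpa3, as for Tph1. It was also lowest for the sums of beta cell, mesenchymal, endothelial and macrophage markers, but not of duct or liver markers. The chymase gene Cma1 stood at 7.19, 48.5 and 52.5 after birth, and Ms4a2, a chain of the IgE receptor, at 0.911, 3.17 and 4.13; for both the groups overlapped. The 3 called lower were Kit, a growth factor receptor gene (90.6, 92.5 and 91.2 at E19, 73.9, 68.5 and 76.9 after birth), the histamine synthesis gene Hdc (38.3, 301 and 61.6, then 4.15, 10.9 and 19.3) and the protease gene Mcpt1 (4.30, 5.88 and 1.14, then 0.354, 1.48 and 0.820). The summed level of the list ran from 157 to 429 at E19 and from 124 to 291 after birth, so that it overlapped between groups. At E19 the sum was made up largely of Kit and Hdc. In postnatal replicates 2 and 3, Cpa3 and Cma1 together exceeded Kit and Hdc together. Kit, Hdc and Srgn are expressed by other cells too. None of the 11 was at 0 in all libraries, but Tpsb2 had no read in fetal replicate 3. Markers of platelets summed to between 10.3 and 28.4 at E19 and 14.9 and 25.4 after birth, and those of enterochromaffin cells of the gut to at most 2.92 in any library, with none of their 7 genes past the filter and Reg4 at 0 throughout. The part of these cells in the Tph1 values was not tested.

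**Figure D2:**
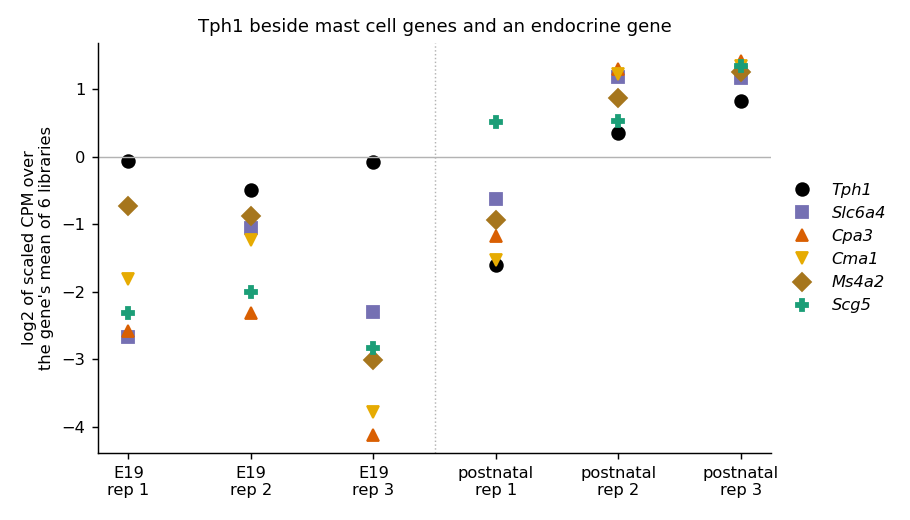
Level of Tph1, the serotonin uptake gene Slc6a4, 3 mast cell genes (Cpa3, Cma1, Ms4a2) and the endocrine granule gene Scg5 in each library, as log2 of scaled CPM over the mean of that gene in the 6 libraries. In postnatal replicate 1 each of these genes lies below the other postnatal libraries, Scg5 only narrowly. There Tph1 (0.759 scaled CPM) also lies below all 3 fetal libraries, whereas Slc6a4, Cpa3 and Scg5 lie above them. The mast cell genes called lower (Kit, Hdc and Mcpt1) are not plotted.

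Markers of islet endocrine cells summed to 905, 916 and 620 scaled CPM in the fetal and 3215, 3535 and 5717 in the postnatal libraries, where they ranked the libraries as Tph1 did. Their part in the Tph1 values was not tested. Scg5, a granule protein gene of that list, stood at 43.7, 54.1 and 30.5 in the fetal and 311, 312 and 548 in the postnatal libraries. The 3 tested genes whose pattern over the 6 libraries was most like that of Tph1 were Nfkbiz, Fos and Fosb. Their root mean square differences from Tph1, after centring each gene on its own mean, were 0.175, 0.175 and 0.191 on the log2 scale. Nfkbiz encodes an NF-kB regulator, and Fos and Fosb are immediate early genes that respond to many stimuli. Fos stood at 612, 598 and 647 at E19 and at 364, 659 and 818 scaled CPM after birth, again lowest in postnatal replicate 1. This likeness is a description over 6 libraries, chosen out of all genes tested.

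Tph2, the tryptophan hydroxylase of brain neurons, was near the limit of detection. It had 9, 7 and 2 reads in fetal and 3, 3 and 7 reads in postnatal replicates 1, 2 and 3, at most 0.276 scaled CPM. The groups overlapped, and the gene was below the filter and so not tested with it. Without a filter its difference did not pass (limma adjusted p = 0.978).

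Ddc, the decarboxylase that completes serotonin synthesis and also makes dopamine, was well expressed in every library. Its level was 73.9, 97.2 and 124 scaled CPM at E19 and 87.7, 54.2 and 69.0 after birth. The postnatal libraries were lower on average (mean 98.4 at E19, range 73.9 to 124, and 70.3 ± 16.8, SD, n = 3, after birth), but postnatal replicate 1 lay inside the fetal range. The difference did not pass (log2 fold change -0.47 ± 0.22, limma adjusted p = 0.0995), with a 95% interval from 1.99-fold lower to 1.03-fold higher. The call turned with the library set and the scaling. It was lower at an adjusted p of 0.0376 without fetal replicate 1, 0.0301 without postnatal replicate 1 and 0.0449 without both fetal replicate 2 and postnatal replicate 1, and at 0.00405 when all libraries were scaled to equal sums.

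Of the vesicular monoamine transporters, 1 was called and 1 was not. Slc18a1 encodes VMAT1, the form of chromaffin and other neuroendocrine cells. Its level was 0.921, 0.702 and 0.524 scaled CPM at E19 and 1.82, 1.76 and 2.97 after birth, from 17 to 30 reads and 36 to 87 reads. Each postnatal library was above each fetal one. Slc18a1 rose with a log2 fold change of 0.88 ± 0.20 (limma adjusted p = 0.00549), and the ratio of mean levels was 3.05. With a pseudocount of 0.1 the log2 fold change was 1.47, with one of 5 it was 0.33, and by edgeR on reads it was 1.65. The call was lost when libraries were scaled to equal sums (0.70, adjusted p = 0.0528). Endocrine markers moved with it, at a summed 813 ± 168 before and 4156 ± 1362 after birth. So did markers of sympathetic and enteric neurons (7.89 ± 1.90 and 19.6 ± 4.86). Of these neuron markers 3 were tested, and 1 passed the filter only through its postnatal values. Mesenchymal and acinar sums, among others, were also higher after birth, while those of endocrine progenitor and erythroid markers were lower. The part of any of these cells in the rise was not tested.

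Slc18a2 encodes VMAT2, the form of neurons, mast cells and some islet cells. Its level was 6.42, 6.80 and 6.81 scaled CPM at E19 and 6.13, 7.06 and 7.34 after birth. The 6 libraries lay close together, and the groups overlapped. The log2 fold change was 0.03 ± 0.13 (limma adjusted p = 0.862), with a 95% interval from 1.21-fold lower to 1.25-fold higher, and only 2.82% of the genes tested had a smaller absolute log2 fold change.

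The ratio of the 2 transporters within a library does not depend on scaling. Slc18a1 over Slc18a2 was 0.144, 0.103 and 0.0769 in the fetal and 0.298, 0.249 and 0.405 in the postnatal libraries, a 2.97-fold difference of geometric means. This and the other ratios below were chosen after the values were seen and are given as descriptions. An exact two-sided permutation test was run on them. With 3 libraries a group it could not give a p under 0.1, so it decides nothing here. Slc18a1 had also passed the filter only through its postnatal values. The ratio of Tph1 to Ddc, by contrast, overlapped between groups (0.0169 to 0.0299 at E19, 0.00866 to 0.0593 after birth).

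Of the serotonin receptors, Htr2b, the Gq-coupled receptor linked to beta cell proliferation in pregnancy, was low and overlapped between groups. It stood at 2.36, 1.57 and 1.63 scaled CPM at E19 and at 2.83, 2.93 and 1.74 after birth, with postnatal replicate 3 inside the fetal range. The log2 fold change was 0.29 ± 0.20 (limma adjusted p = 0.243), with a 95% interval from 1.13-fold lower to 1.68-fold higher. Htr1d, a Gi-coupled receptor, had 1 read in each of fetal replicates 1 and 2 and none in the other 4 libraries. Taking 3 reads as the most that a count of 0 allows, its level was at most 0.0925 scaled CPM in fetal replicate 3 and up to 0.152, 0.103 and 0.102 in postnatal replicates 1, 2 and 3. Htr1d was thus not detectable above a few reads, and no difference could be read from it.

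The other serotonin receptors were also low or not detected. Of 12 listed, 11 had a row and 2 passed the filter, Htr1b and Htr2a, neither of them called. Htr1b, a Gi-coupled receptor, stood at 1.55 ± 0.462 and 2.13 ± 0.802 scaled CPM (log2 fold change 0.28 ± 0.23), and Htr2a at 1.57 ± 0.138 and 1.97 ± 0.359 (0.21 ± 0.16). Htr1a and Htr5a had no read in any library. Htr3a, the subunit of the serotonin-gated ion channel, missed the filter with 0.829, 1.60 and 0.925 at E19 and 0.202, 0.310 and 0.376 after birth. Its groups did not overlap, with 27 to 66 reads before and 4 to 11 reads after birth, and it had no test with the filter. Without a filter, 9 receptors of the list were tested by limma, 1 called higher and 1 lower. Over all 16946 genes tested there, 4207 were called higher and 4401 lower.

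Genes that take up or break down serotonin, or support its synthesis, were called in both directions. Of 27 listed, 26 had a row and 18 were tested: 11 were called higher, 4 lower and 3 not, with a median log2 fold change of 0.83 against -0.03 for all genes. In this test 30.0% of all genes were called higher and 33.1% lower. Of the 18, 2 (Slc6a4 and Slc22a3) entered through their postnatal values alone. With libraries scaled to equal sums, 7 were higher and 5 lower.

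The monoamine oxidases, which degrade serotonin, moved in opposite directions. Maoa, the form that prefers serotonin, stood at 74.0, 86.5 and 101 scaled CPM at E19 and 58.4, 46.0 and 52.6 after birth. It fell by 0.72 ± 0.14 on the log2 scale (limma adjusted p = 0.00291). Maob stood at 17.4, 27.3 and 10.9 at E19 and at 95.2, 89.3 and 154 after birth, and rose by 2.59 ± 0.33 (limma adjusted p = 3.89e-04). For each gene the groups did not overlap. Maob over Maoa within a library ran from 0.108 to 0.315 at E19 and from 1.63 to 2.93 after birth, a 10.5-fold difference of geometric means. Maob is abundant in several cell types, endocrine cells among them, and endocrine markers were higher after birth (summed 813 ± 168 and 4156 ± 1362); their part was not tested.

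Of 3 uptake transporters called higher after birth, Slc6a4 and Slc22a3 passed the filter only through their postnatal values, which builds a difference into their test. Slc6a4, the high-affinity serotonin transporter, stood at 0.307, 0.944 and 0.401 scaled CPM at E19 and at 1.27, 4.44 and 4.40 after birth. It rose by 1.41 ± 0.36 (limma adjusted p = 0.00962), with postnatal replicate 1 lowest of its group, as for Cpa3, Tph1 and the beta cell marker sum. Slc29a4, a low-affinity monoamine transporter, stood at 7.10 ± 2.21 and 29.1 ± 5.60 and rose by 1.92 ± 0.24. Slc22a3, another of that kind, stood at 0.338 ± 0.153 and 2.45 ± 0.367 and rose by 1.37 ± 0.17. The largest rises beside Maob were those of amino acid transporters that carry aromatic amino acids, Slc16a10 (2.38 ± 0.28) and Slc7a8 (2.11 ± 0.19).

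The enzymes of tetrahydrobiopterin, the cofactor of tryptophan hydroxylase, were split. Gch1, the first enzyme of its synthesis, stood at 20.4 ± 2.69 scaled CPM before and 48.0 ± 17.3 after birth and rose by 1.15 ± 0.24, a call lost with libraries scaled to equal sums (limma adjusted p = 0.0692). The next enzymes and the recycling enzyme are named, after their values were seen, because with Maoa they are the 4 genes of the list that fell. Spr, sepiapterin reductase, fell by 0.92 ± 0.11, Qdpr, which recycles the cofactor, fell by 1.34 ± 0.13, and Pts fell by 0.51 ± 0.17 (limma adjusted p = 0.0281). The Pts call was lost when any of fetal replicates 2 and 3 or postnatal replicates 2 and 3 was left out, and with scaling without the 20 highest genes (limma adjusted p = 0.106). Pcbd1 and Gchfr, a recycling enzyme and the feedback regulator of Gch1, did not pass (-0.23 ± 0.21 and -0.25 ± 0.22).

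**Figure D3:**
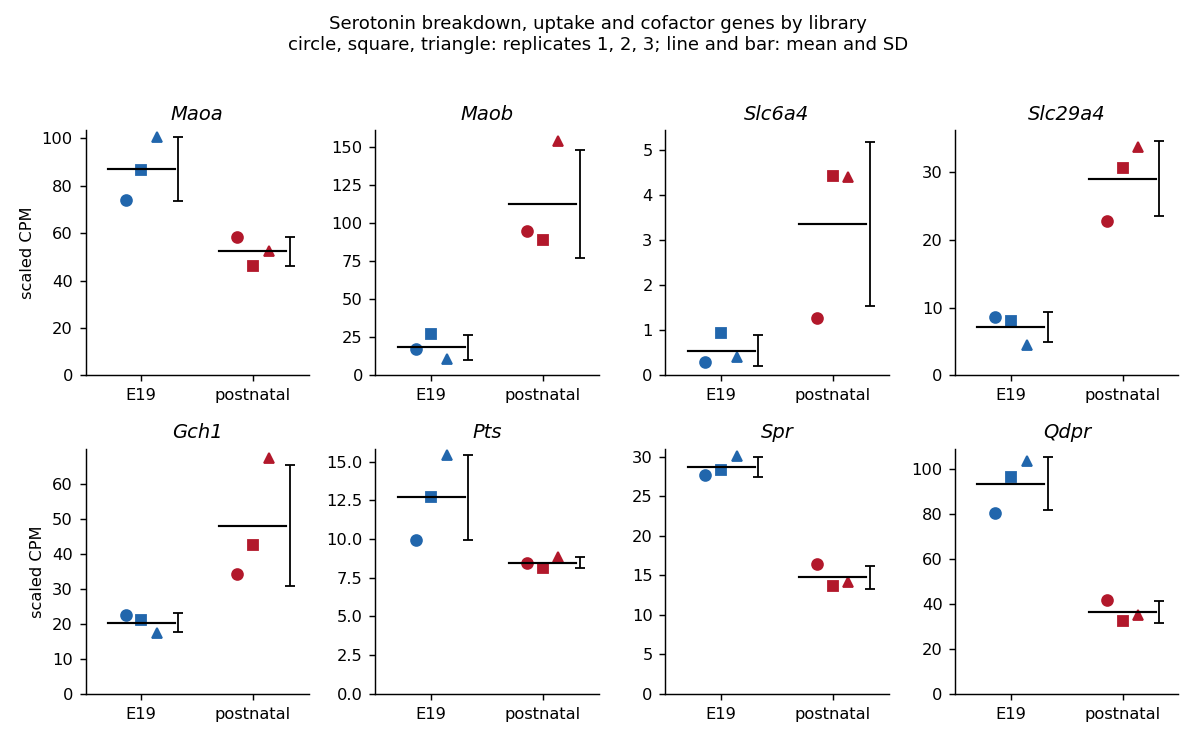
Scaled CPM of 8 genes of serotonin breakdown (Maoa, Maob), uptake (Slc6a4, Slc29a4) and cofactor supply (Gch1, Pts, Spr, Qdpr) in each library, vertical axes from 0. Symbols are replicates 1, 2 and 3, lines and bars are mean and SD. The groups separate in all 8 panels, with Maoa, Pts, Spr and Qdpr lower and the other 4 higher after birth. Groups did not overlap for 70.0% of all genes tested either. Slc29a4, Pts, Spr and Qdpr were picked after their values were seen, and Pcbd1 and Gchfr, whose groups overlapped, are not plotted.

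Transcription factors that specify serotonergic neurons were called higher or not called. Of 8 listed, 7 had a row and 6 were tested, 3 of them called higher and 0 lower, beside 30.0% and 33.1% of all genes tested. No list gene was lower at an unadjusted p under 0.05 with limma, nor by edgeR or DESeq2. Of the 6, 1 passed the filter only through its postnatal values, which builds a difference into its test. Fev, which activates Tph genes in neurons, stood at 1.14, 0.605 and 0.771 scaled CPM at E19 and 1.47, 1.62 and 1.81 after birth (log2 fold change 0.53 ± 0.17, limma adjusted p = 0.0252). Gata2, also a mast cell factor, stood at 6.23, 2.78 and 2.07 and at 5.27, 9.67 and 8.23 (0.96 ± 0.34, limma adjusted p = 0.0382), with overlapping groups. Each of these 2 calls was lost when any of fetal replicates 2 and 3 or postnatal replicates 2 and 3 was left out, and with equal sums (limma adjusted p = 0.270 for Fev and 0.206 for Gata2). The Gata2 call was also lost without a filter and with edgeR, which called 2 of the 6 higher. Foxa2 and Nkx2-2 did not pass, at -0.04 ± 0.12 and 0.14 ± 0.21.

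Ghr, the growth hormone receptor, was well covered in every library. It stood at 132, 138 and 148 scaled CPM at E19 and at 158, 108 and 122 after birth. The fetal values fell inside the postnatal range. The log2 fold change was -0.12 ± 0.15 (limma adjusted p = 0.495), with a 95% interval from 1.38-fold lower to 1.17-fold higher. Scaling to equal sums gave -0.47 (adjusted p = 0.0234), and scaling without the 20 highest genes gave 0.12 (adjusted p = 0.396), so its direction was not fixed. Liver also expresses Ghr, and liver markers summed to 7915 in fetal replicate 2; their part in the Ghr value of that library was not tested. Ell2, Rita1 and LOC103692173 had the patterns most like that of Ghr, with root mean square differences of 0.0368, 0.0402 and 0.0467 on the log2 scale over the 6 libraries.

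Transcripts of the ligands of these receptors were absent or nearly so in these islet libraries. The hormones themselves were not measured. Of 7 growth hormone, prolactin and placental lactogen genes listed, 6 had a row, and 5 of them had no read in any library. Gh1 had 2 reads in fetal replicate 3, 2 in postnatal replicate 1 and none elsewhere.

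Downstream of the receptors, both STAT5 genes and 3 genes known to respond to lactogens or growth hormone (Cish, Socs2 and Tnfrsf11b) were higher after birth; the lists they belong to, given below, held genes called in both directions. Stat5a stood at 16.4, 21.6 and 15.5 scaled CPM at E19 and 46.5, 49.1 and 48.3 after birth, and rose by 1.39 ± 0.14 (limma adjusted p = 1.28e-04). Stat5b stood at 40.4, 47.8 and 40.3 and at 102, 106 and 106, and rose by 1.27 ± 0.10 (limma adjusted p = 5.63e-05). The 3 postnatal libraries lay close together for both genes, and neither gene's groups overlapped. Endocrine markers (summed 813 ± 168 and 4156 ± 1362) and mesenchymal markers (1827 ± 375 and 9363 ± 2547) were higher in the same libraries, and their part was not tested. Stat5b over Ghr within a library ran from 0.272 to 0.348 at E19 and from 0.642 to 0.986 after birth, a 2.67-fold difference of geometric means.

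Cish stood at 3.87, 3.70 and 3.02 scaled CPM at E19 and 13.0, 9.46 and 11.1 after birth. It rose by 1.42 ± 0.16 (limma adjusted p = 2.35e-04). The 4 matches to the STAT5 element in its upstream window, shown above, were not tested as binding sites. Socs2, a feedback inhibitor of growth hormone signalling, stood at 1.84, 3.39 and 3.02 and at 10.7, 14.4 and 14.9, and rose by 1.94 ± 0.21 (limma adjusted p = 1.95e-04). Tnfrsf11b, which encodes osteoprotegerin and is induced by lactogens in beta cells, stood at 9.67, 9.24 and 5.27 and at 39.1, 45.4 and 64.0. It rose by 2.49 ± 0.25 (limma adjusted p = 1.52e-04). For all 5 genes the groups did not overlap, as for 70.0% of all genes tested, and each kept its call under all 26 other settings. Socs2, Cish and Stat5a had the largest absolute log2 fold changes among the called genes of the JAK-STAT list.

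**Figure D4:**
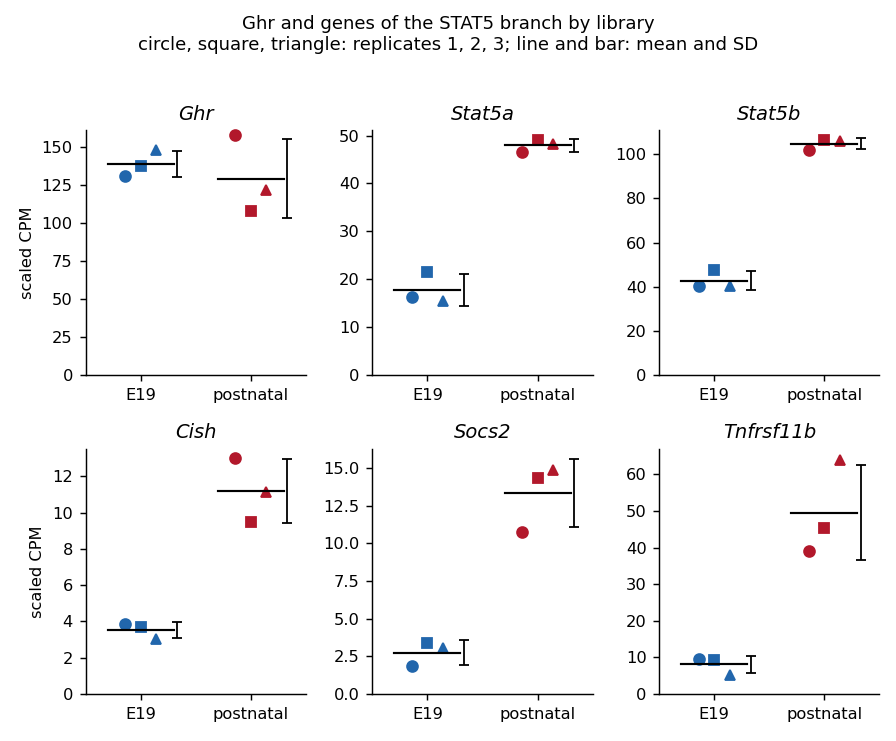
Scaled CPM of Ghr, the STAT5 genes (Stat5a, Stat5b) and 3 genes known to respond to lactogens or growth hormone (Cish, Socs2, Tnfrsf11b) in each library, vertical axes from 0. Symbols are replicates 1, 2 and 3, lines and bars are mean and SD. Ghr overlaps between E19 and postnatal libraries and the other 5 genes do not, as is true of 70.0% of all genes tested.

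Across the JAK-STAT signalling list, 26 of 28 genes had a row and all 26 were tested. Of them 14 were called higher, 2 lower and 10 not, beside 30.0% higher and 33.1% lower over all genes tested. The median log2 fold change was 0.43 beside -0.03 for all genes. The 2 that fell were Irs2 (-0.88 ± 0.21), an insulin receptor substrate, and Ptpn2 (-0.43 ± 0.13), a phosphatase of JAK and STAT proteins. Jak2 is not analysed here. Tyk2 and the adaptor gene Shc1 showed the smallest differences (-0.02 ± 0.11 and 0.01 ± 0.10). With libraries scaled to equal sums, 7 were higher and 3 lower, and without the 20 highest genes 15 and 0. The Ptpn2 call was also lost without any of fetal replicates 2 and 3 and postnatal replicate 2 (limma adjusted p up to 0.126 over all settings).

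Genes known to respond to lactogens or growth hormone did not move one way. Of 17 listed, 14 had a row and 13 were tested: 9 were called higher and 4 lower, beside 30.0% and 33.1% of all genes tested, so that the share called lower was near that of all genes. The median log2 fold change was 1.01, beside -0.03 for all genes. Beside Tnfrsf11b and Socs2, the glucose transporter gene Slc2a2 rose (2.18 ± 0.27). The 4 lower genes were Birc5 (-2.98 ± 0.13), Foxm1 (-1.60 ± 0.14), Irs2 and Men1 (-0.53 ± 0.11). Birc5 and Foxm1 are cell cycle genes that lactogens raise in pregnancy, and Men1 encodes menin, which they lower. The cyclin-dependent kinase inhibitor gene Cdkn1b rose by 0.65 ± 0.14, a call lost with equal sums (limma adjusted p = 0.311). Those of Irs2 and Men1 were lost with scaling without the 20 highest genes (0.0560 and 0.0621). Endocrine markers were higher in the same libraries (summed 813 ± 168 and 4156 ± 1362), as were mesenchymal markers (1827 ± 375 and 9363 ± 2547), and their part in these differences was not tested.

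**Figure D5:**
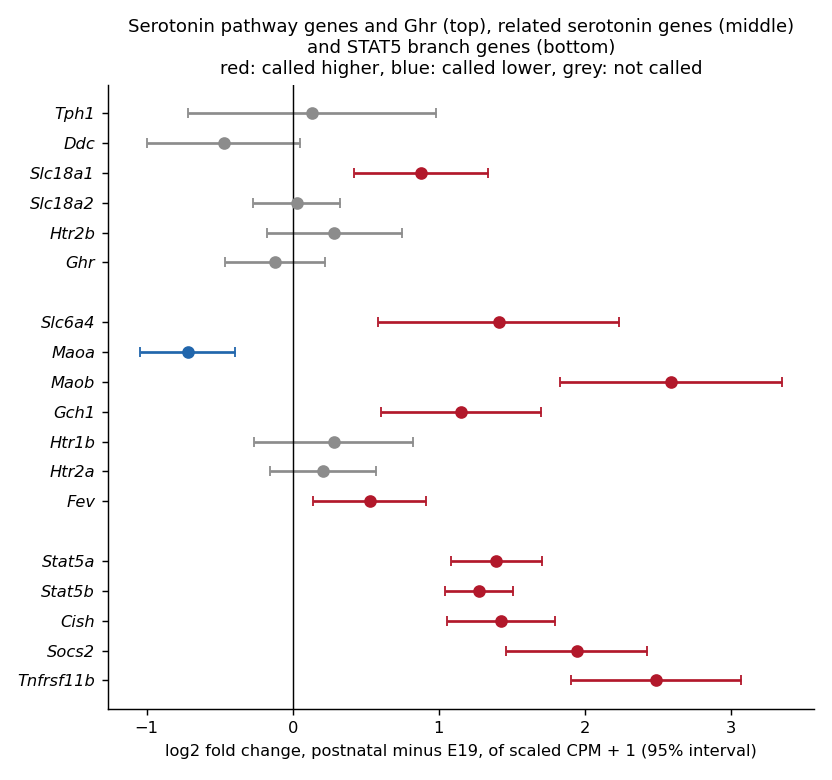
Log2 fold change (postnatal minus E19, of scaled CPM + 1) with 95% interval for 6 serotonin pathway and receptor genes (top), 7 related serotonin genes (middle) and 5 STAT5 branch genes (bottom). Red and blue mark genes called higher and lower by limma and grey those not called; Slc18a1 (0.88) is the only coloured gene in the top block, and all 5 at the bottom lie above 1.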

How the data were processed

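Total RNA of isolated rat islets was sequenced after ribosomal RNA depletion with a stranded kit, per the labels' protocols. TopHat2 2.0.8b and edgeR 3.30.3 are named in the submitters' processing notes. Not given in the sources used here: genome build, annotation, counter and strand setting. Reads of genes that overlap may therefore be mixed. The deposited signal was whole reads times 1 constant per library: 100% of values were whole within 0.001 reads. The constants imply library sizes of 0.677 to 1.25 times the reads, and values are called scaled CPM. A row without a gene name (1 to 9 reads a library, at most 3.19e-05%) was left out.

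Libraries were grouped by title. log2(value + 1) was fitted with limma 3.58.1 (R 4.3.3; trend, group only, two-sided) across genes with at least 1 scaled CPM in at least 3 libraries, with Benjamini-Hochberg adjustment over all of them. The test was checked on simulated data in which few genes changed, none of them low. That check does not cover low genes or a change as broad as the one found here. Alternatives were other pseudocounts, filters and scalings, a robust trend, a replicate block, the labelled week as a covariate, libraries left out, and count tests on the recovered reads (edgeR 4.0.16; DESeq2 1.42.0). The genes, the 8 pathway lists and 17 marker lists were chosen with earlier results of these data known. Of 270 list entries, 242 had a row. Named in each pathway list are the 3 called genes with the largest and the 2 tested genes with the smallest absolute fold change, and the close partners of the 9 genes; Slc29a4, Slc22a3, Spr, Qdpr, Pts, Irs2, Ptpn2, Foxm1, Scg5 and single markers were added after their values were seen. Gene names older than RefSeq's were matched through its table of GRCr8, used for names only. Values of 1 gene that the naming rule picks are not reported here.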

Additional observations from a re-analysis of the deposited data

How the results depend on the processing

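Over 26 other settings (6 of them, which keep all tested genes when a library is left out, chosen after seeing the data), Slc18a1 kept its call in 20 of the 21 that tested it. Htr2b and Slc18a2 were never called, Tph1 was called in 2 of 25, Ddc in 6 of 26 and Ghr in 1 of 26. Uncalled signs changed in 5 settings for Tph1, 3 for Slc18a2 and 1 for Ghr. Scaling to equal sums moved the median of all genes from -0.03 to -0.36 and the calls over all genes from 3874 higher and 4278 lower to 1785 and 5087. Of the 6 pathway genes, 0 were then higher and 2 lower (Ddc and Ghr). Scaling without the 20 highest genes moved the median to 0.20 and the calls to 5065 and 3213. Under the stricter filter 0 pathway genes were called higher, since Slc18a1 was not tested. Leaving out 1 library gave 0 to 2 pathway genes higher and 0 to 1 lower; without both fetal replicate 2 and postnatal replicate 1 it was 0 and 1. Slc18a1 dropped below the filter without any 1 postnatal library. Kept in the test, its log2 fold change was 0.71 to 0.97 over the libraries left out, always called. It had passed the full filter only through its postnatal values, so a difference was built into these fits and they give no independent support.

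Equal sums also lowered the list counts: higher calls went from 11 to 7 among serotonin handling genes, from 14 to 7 among JAK-STAT genes, from 11 to 7 among cytokine receptors and from 3 to 1 among serotonergic factors. Same-numbered libraries did not deviate together (r = -0.21, 0.10 and -0.25), so numbers were not taken as pairs; with the replicate block 3563 genes were higher and 3863 lower, and 1 pathway gene was higher and 0 lower, while 1 serotonergic factor in place of 3 was called higher. Depth limits Tph2 and Htr1d, at or below 9 reads a library.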

Other observations

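Other class I cytokine receptors, the family of Ghr and Prlr, were mostly higher after birth. Of 19 listed, 18 had a row and 15 were tested: 11 were called higher, 0 lower and 4 not by limma, beside 30.0% and 33.1% of all genes. At an unadjusted p under 0.05, 1 was lower, the erythropoietin receptor gene Epor (named after its values were seen), which edgeR did not call and DESeq2 did. The oncostatin M receptor gene Osmr stood between 1.23 and 2.23 scaled CPM at E19 and at 12.2, 23.0 and 25.3 after birth and rose by 2.95 ± 0.28. The interleukin 6 receptor gene Il6r stood at 6.34 ± 2.60 and 45.3 ± 14.0 and rose by 2.68 ± 0.30. Csf2rb, the shared beta chain of myeloid growth factor receptors, stood at 1.53 ± 0.865 and 15.0 ± 7.58 and rose by 2.57 ± 0.43. Lifr and Crlf2 showed the smallest differences, at -0.04 ± 0.11 and 0.10 ± 0.19. Erythroid markers summed to 3157 ± 1969 before and 573 ± 127 after birth. Macrophage markers summed to 57.1 ± 19.4 before and 86.7 ± 27.4 after birth and mesenchymal markers to 1827 ± 375 and 9363 ± 2547; their part was not tested.

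Among the G proteins and effectors that serotonin receptors use, 12 of 15 listed genes were tested, 8 called higher, 2 lower and 2 not, beside 30.0% and 33.1% of all genes tested. Of the 12, 1 passed the filter only through its postnatal values. With libraries scaled to equal sums 6 of the 12 were called higher. The same number was higher without postnatal replicate 3, with all 12 kept in the test. Gnaz rose by 1.78 ± 0.23, Gna14, a Gq family member, by 1.48 ± 0.26 and the phospholipase gene Plcb4 by 1.38 ± 0.16. The lower genes were Gnai3 (-0.56 ± 0.12) and Gna11 (-0.40 ± 0.10), named after their values were seen; the Gna11 call was lost with scaling without the 20 highest genes (limma adjusted p = 0.164). Plcb1 and Plcb3 did not pass (0.01 ± 0.09 and -0.18 ± 0.12).

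By label, the postnatal library of week 2 (replicate 1) had the lowest Tph1, Slc6a4 and Cpa3 of its group and the highest acinar sum. It also had the lowest postnatal sums of beta cell, mesenchymal, endothelial and macrophage markers. The sums of duct, liver and endocrine progenitor markers were highest there. The labelled week, the library and its acinar content cannot be told apart with 1 library a week.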
